A study of Mus musculus with 15 samples.

Results

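Miat and 5 other long noncoding RNAs of neural cells, Malat1, Neat1, Rmst, Pantr1 and Sox2ot, were followed in hippocampal neural precursor cells that overexpressed the transcription factor Atf3 or Atf4. The 6 genes were taken by name from the 55416 genes of the count table, and Miat was picked because it fell strongly in these same libraries. Since it was chosen by its log2 fold change against control, its values are given as a description without a test. The other 5 RNAs were added as well-studied nuclear or neural long noncoding RNAs, with earlier results of these data known.

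RNA was sequenced from 3 stable mouse lines, with 5 libraries per line and 15 in all. Neural precursor cells from the hippocampus of 6-week-old mice had received, by piggyBac transposition, a cassette with the TRE3G promoter, a TetON-3G transactivator driven by the SV40 promoter and puromycin resistance. In the Atf3 line the cassette carried the coding sequence of Atf3, in the Atf4 line that of Atf4, and in the control line neither. In all 3 lines EGF and FGF were withdrawn to start differentiation, doxycycline at 100 ng/ml was given from the same moment, and cells were harvested at 10 h. The controls thus share the cassette, the transactivator, the drug and the growth factor withdrawal. Each construct is represented by 1 line, so the construct and other properties of that line cannot be told apart, and the labels do not say whether a line is a clone. Nor do they say whether the 5 libraries of a line came from separate cultures, so the p-values cover only the variation among these libraries, which may be technical.

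Depth was 53.7 to 69.6 M counts per library. Levels are given as CPM, the count of a gene scaled to a common library size, after TMM scaling, as mean ± SD over 5 libraries. The labels describe female animals, but the Y-linked genes Ddx3y, Eif2s3y, Kdm5d and Uty were above 10 CPM in 15 of 15 libraries and Xist lay between 0.0372 and 0.650 CPM. Atf3 mRNA was 1941 ± 120 CPM (SD, n = 5) in the Atf3 line and 5.02 ± 4.10 in the control line, where 1 library reached 11.0. Atf4 mRNA was 153 ± 21.7 CPM in its own line, 250 ± 16.5 in Atf3 cells and 83.2 ± 6.75 in the control line. The mean levels of all 8 precursor markers, among them Sox2, Nes and Vim, exceeded 1 CPM in every line. Of the 8, 3 were called higher and 3 lower in the Atf3 line, and 4 and 2 in Atf4 cells. Over all tested genes 36.8% were called higher and 36.3% lower in the Atf3 line, and 31.9% and 29.7% in Atf4 cells. With so few markers, the counts cannot be set apart from these shares. Hes5 fell from 11.2 ± 0.843 CPM in the control line to 1.04 ± 0.437 in the Atf3 line and 3.32 ± 1.29 in Atf4 cells. Neuronal markers were also too few to be set apart from these shares. Of 9 tested, 3 rose and 4 fell in the Atf3 line, and 4 rose and 3 fell in Atf4 cells. Their summed level was 1648 to 1828 CPM in control libraries, 1342 to 1570 in Atf3 and 1366 to 1520 in Atf4 libraries. Most of it came from Map2, at 1679 ± 75.7, 1444 ± 104 and 1395 ± 75.7 CPM in the control, Atf3 and Atf4 lines. Tubb3, a neuronal tubulin, had 85.1 ± 2.06, 15.7 ± 1.96 and 42.9 ± 7.77 CPM, whereas the mean levels of Rbfox3, Stmn2, Gap43 and all 6 microglia markers were below 1 CPM in every line.

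Long noncoding RNAs are transcripts that are not translated into protein. Malat1 gathers in nuclear speckles, bodies rich in splicing factors, and Neat1 is the scaffold on which paraspeckles assemble. Miat, also known as Gomafu, stays in the nucleus of neural cells and carries repeats of the branch point sequence UACUAAC, which the splicing factor SF1 binds. Rmst, Pantr1 and Sox2ot are neural transcripts: Rmst is known as a partner of the SOX2 protein, and the other two lie beside or around genes of neural transcription factors.

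Miat (ENSMUSG00000097767) lies on the minus strand of chromosome 5 at chr5:112213228-112229395 (GRCm38), is annotated as a lincRNA with 6 transcripts and covers 9293 exonic bases. Its longest GENCODE M21 transcript, Miat-205, has 9163 bases and 6 copies of the letters TACTAAC, the DNA spelling of the SF1 repeat, on the transcribed strand. The copies fall in a pair of clusters, shown because they are the best known feature of this RNA. Capitals mark the repeats, and positions count from the 5′ end of Miat-205.
Miat-205, positions 4931 to 5082: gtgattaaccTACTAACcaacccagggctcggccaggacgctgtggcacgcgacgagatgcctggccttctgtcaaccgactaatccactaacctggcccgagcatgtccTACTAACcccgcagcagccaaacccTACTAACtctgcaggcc
Miat-205, positions 5579 to 5639: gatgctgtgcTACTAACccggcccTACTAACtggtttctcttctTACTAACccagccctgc
Among 132 long noncoding genes whose longest transcript has at least 5000 bases, 19.7% held at least 1 copy, and the only 1 with 6 or more was Miat itself. Of the other members, Neat1 held 1 copy in 20771 bases, and the longest transcripts of Malat1, Rmst, Pantr1 and Sox2ot held 0. That is 0.655 copies per kb in Miat against 0.0481 in Neat1.

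Miat was the member with the widest difference between lines. Its CPM in the 5 control libraries was 53.2, 52.5, 45.1, 53.7 and 44.9. In the Atf3 line it was 0.573, 0.910, 0.808, 1.06 and 0.601, and in the Atf4 line 2.93, 2.91, 2.01, 1.66 and 1.40. All 5 control libraries were high, all 10 others were low, and no pair of lines overlapped. The counts behind these levels were 2565 to 3620 in control cells, 31 to 57 in the Atf3 line and 78 to 207 in Atf4 cells. The fitted level was 1.58% of control in the Atf3 line, a log2 fold change of -5.98 (SE 0.17), and 4.45% of control in the Atf4 line, -4.49 (SE 0.15). The Atf4 line stood above the Atf3 line by 1.49 (SE 0.21) on the log2 scale. Leaving out any single library kept these 3 values within -6.10 to -5.89, -4.64 to -4.39 and 1.36 to 1.62. Because Miat was picked for its fall in these same libraries, these ranges are a description and no independent check.

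**Figure D1:**
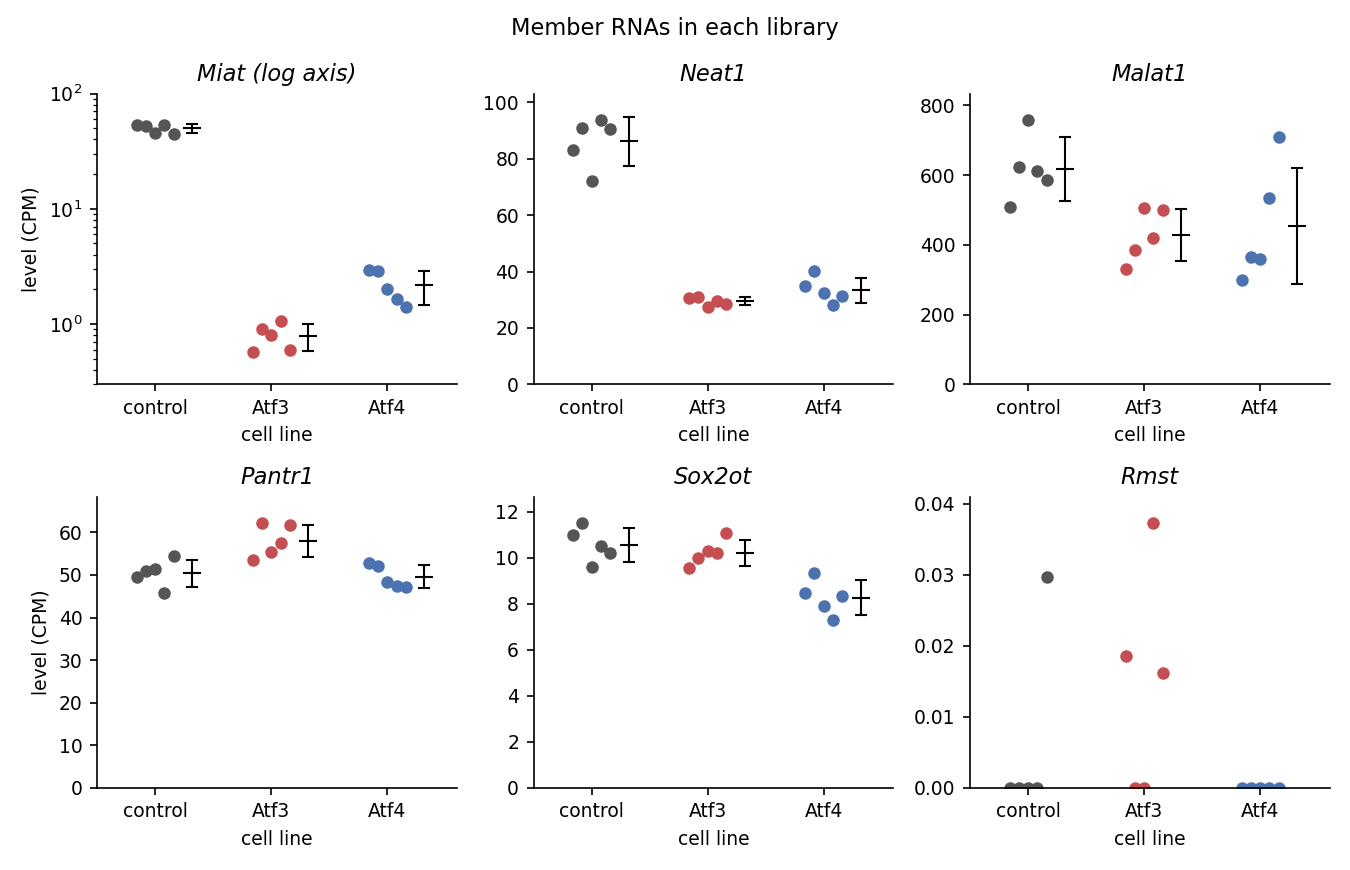
Level of each member in every library (points, CPM) in the control, Atf3 and Atf4 lines; bars show mean ± SD over 5 libraries, the Miat axis is logarithmic, and Rmst has no bars because it had at most 2 counts per library. Miat separates all 3 lines, Neat1 separates control from both others, and Malat1 spreads from 299 to 708 CPM within the Atf4 line.

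Few counts were assigned to Gm26953, a lincRNA gene on the opposite strand that shares 24.3% of the exonic bases of Miat. Gm26953 had 6, 6, 8, 20 and 11 counts in the control libraries, 0 in all 5 Atf3 libraries, and 1, 0, 0, 0 and 2 in the Atf4 libraries, too few to be tested. The library kit named in the labels does not mark strand, so reads of the shared bases cannot be told apart and RNA from the antisense strand was not measured as such. Miat held far more counts than Gm26953 in every library.

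A promoter window of Miat is shown as the start region of the RNA with the widest difference. It runs from 250 bases before to 50 after the RefSeq start (RefSeq, GRCm38.p6), minus strand, chr5:112228899-112229198, and capitals mark the bases after that start.
Miat promoter: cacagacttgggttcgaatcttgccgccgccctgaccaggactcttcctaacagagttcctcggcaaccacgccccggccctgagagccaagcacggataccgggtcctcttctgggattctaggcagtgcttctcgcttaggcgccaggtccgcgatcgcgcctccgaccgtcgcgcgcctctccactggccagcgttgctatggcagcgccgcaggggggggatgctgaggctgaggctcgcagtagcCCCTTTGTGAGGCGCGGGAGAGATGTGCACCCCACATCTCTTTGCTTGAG
RefSeq places this start inside the GENCODE gene, whose own 5′ end lies at position 112229395. GC content was 64.3% against a median of 52.7% over 32841 promoter windows of the same length without ambiguous letters, and the window held 25 CpG against a median of 7. Letters that ATF, CREB, AP-1 and C/EBP-ATF dimers are known to recognise were searched on both strands: TGACGTCA (in 1.79% of the windows), its shorter core TGACG (20.8%, which every TGACGTCA also contains), TGANTCA (7.81%) and TGATGNAA (3.97%). None of these 4 occurred in the Miat window. Bases before the GENCODE start lie outside this window and were not searched.

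Protein-coding genes beside Miat were lower as well, with the largest differences at the nearest 2. Of 10 tested genes within 500 kb, all on the side of higher coordinates, 9 fell and 0 rose in the Atf3 line, where 36.3% of all 18244 tested genes were called lower and 36.8% higher. In the Atf4 line 7 of the 10 fell and 0 rose, against 29.7% lower and 31.9% higher over all genes. Calls are edgeR quasi-likelihood tests with an adjusted p under 0.05. Within 100 kb, 3 of 4 neighbours fell in each line.

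The nearest neighbour, Cryba4 (17098 bases away), encodes a lens crystallin and was scarce throughout. Cryba4 fell from 0.946 ± 0.212 CPM in the control line to 0.232 ± 0.0462 in the Atf3 line (log2 fold change -2.02, edgeR adjusted p = 1.57e-07) and 0.311 ± 0.0810 in the Atf4 line (-1.59, edgeR adjusted p = 2.78e-06). Crybb1, another crystallin gene 26420 bases away, was chosen after its values were seen. Crybb1 fell from 10.1 ± 0.920 CPM to 2.24 ± 0.362 in the Atf3 line (-2.17, edgeR adjusted p = 6.72e-10) and 3.38 ± 1.04 in the Atf4 line (-1.57, edgeR adjusted p = 6.11e-08). Differences did not simply shrink with distance. Gm6588, a scarce gene 220031 bases away that was named after its values were seen, fell from 0.567 ± 0.0849 CPM to 0.178 ± 0.0887 in the Atf3 line (-1.64, edgeR adjusted p = 1.59e-04) and 0.220 ± 0.0995 in the Atf4 line (-1.36, edgeR adjusted p = 8.28e-04). The differences of the other 7 tested neighbours were smaller. Tpst2, a tyrosylprotein sulfotransferase gene 47296 bases away and also chosen after its values were seen, fell from 44.0 ± 2.12 CPM to 30.3 ± 2.39 in the Atf3 line (-0.54, edgeR adjusted p = 8.64e-08). In the Atf4 line Tpst2 was 36.5 ± 2.64 CPM (-0.27, edgeR adjusted p = 4.05e-04). Between the overexpressing lines, 5 of the 10 neighbours were higher in the Atf4 line and 0 lower, against 19.7% and 23.9% of all genes. Miat was also higher in the Atf4 line than in Atf3 cells.

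**Figure D2:**
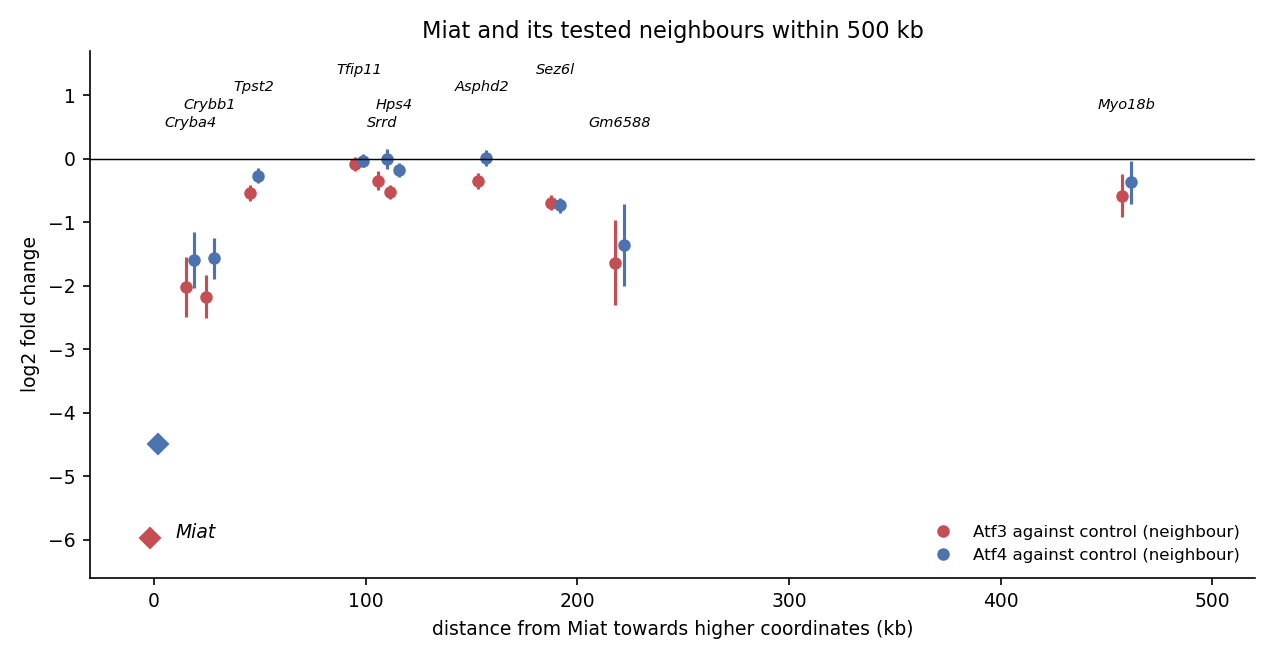
Log2 fold change against the control line (y axis) of Miat (diamonds) and of its 10 tested protein-coding neighbours (circles, with 95% confidence intervals) against their distance from Miat in kb (x axis; points of the 2 lines are shifted slightly apart). Cryba4 and Crybb1, the nearest 2, lie between -2.17 and -1.57, and the others lie closer to 0 except Gm6588, at -1.64 and -1.36.

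Among the candidates searched, the 5 genes whose pattern over the libraries was most like that of Miat were protein-coding. Predicted genes and clone names (symbols of Gm plus digits or ending in Rik) were left out beforehand. Long noncoding genes with such names were therefore not searched, and the ranking says nothing about them. Genes with a low mean log2 CPM over all 15 libraries were left out too. A gene of modest control level that fell as far as Miat could fail that limit. Likeness was the root mean square difference of log2 CPM, taken relative to the control mean, over 15 libraries and 12071 candidate genes. The nearest 5 were Scg2 at 1.23, Dscaml1 at 1.32, Thsd7b at 1.58, Camk2a at 1.64 and Gucy1b2 at 1.67. Scg2, which encodes secretogranin II of secretory granules, had 41.9 ± 4.50 CPM in control cells, 1.25 ± 0.208 in the Atf3 line and 6.99 ± 1.53 in Atf4 cells. Camk2a, a calmodulin-dependent kinase of neurons, had 52.4 ± 2.69, 3.76 ± 0.661 and 9.06 ± 2.64 CPM. A distance over 1 log2 unit means that even Scg2, the closest of the candidates searched, followed Miat only loosely.

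Markers of the oligodendrocyte lineage and of astrocytes mostly fell where Miat fell. Of 8 tested oligodendrocyte lineage markers, 8 fell in the Atf3 line and 7 in Atf4 cells by edgeR, where 36.3% and 29.7% of all genes were lower. Their median log2 fold change was -1.79 and -1.01. The summed level of all 10 listed markers was 4388 to 4921 CPM in control libraries, 3036 to 3877 in the Atf3 line and 3596 to 4311 in Atf4 cells. Most of that sum came from Olig1 and Olig2, transcription factor genes whose log2 fold changes were -0.34 and -0.20 in the Atf3 line and 0.00 and -0.23 in Atf4 cells. The mature markers Mbp and Mog, and Sox10, were below 1 CPM in all 3 lines. Astrocyte markers leaned the same way: of 5 tested, 3 fell and 1 rose in the Atf3 line, and 4 fell and 1 rose in Atf4 cells. Their median log2 fold change was -0.87 and -0.98, and the marker that rose in both lines was Slc1a2 (0.90 and 0.89). The part of either cell type in the fall of Miat was not tested. In these bulk libraries, fewer cells of a type and less RNA per cell cannot be told apart.

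Neat1 (ENSMUSG00000092274, lincRNA, chr19:5824708-5845478, minus strand, 20771 exonic bases) fell in both overexpressing lines, to 34.2% of control in the Atf3 line and 38.8% in Atf4 cells. Its CPM was 83.2, 91.1, 72.3, 93.8 and 90.5 in the control libraries, 30.5, 31.0, 27.6, 29.6 and 28.5 in the Atf3 line, and 35.0, 40.1, 32.3, 28.3 and 31.5 in the Atf4 line. Every control library stood above every other library. The log2 fold change was -1.55 (SE 0.08, edgeR adjusted p = 5.08e-12) in the Atf3 line and -1.36 (SE 0.08, edgeR adjusted p = 6.64e-11) in the Atf4 line. The Atf4 line was 0.19 above the Atf3 line (95% interval 0.02 to 0.35), which did not pass the edgeR test (adjusted p = 0.0703). That last call changed with the scaling and with 2 Atf4 libraries: under upper-quartile scaling, plain totals, a filter of 1 CPM, or without Atf4 replicate 4 or 5, adjusted p lay between 0.00805 and 0.0463. Gene counts do not separate the short polyadenylated transcript of Neat1 from the long one that builds paraspeckles.

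Genes for the protein partners of Neat1 did not follow it at the RNA level, and protein was not measured. Of 15 genes for paraspeckle proteins, 13 rose and 1 fell in the Atf3 line (median log2 fold change 0.35), and 10 rose and 2 fell in Atf4 cells (median 0.09). Over all genes, 36.8% rose and 36.3% fell in the Atf3 line, and 31.9% and 29.7% in Atf4 cells. Under upper-quartile scaling the counts were 9 and 2 in the Atf3 line and 7 and 2 in Atf4 cells. That scaling also moved the share of all calls that were higher, from 50.3% to 40.0% and from 51.8% to 44.0%. With TMM scaling the median over all tested genes was -0.017 and -0.001. Of the genes for core proteins, Sfpq rose from 451 ± 11.8 CPM to 594 ± 22.9 in the Atf3 line (0.40, edgeR adjusted p = 9.39e-08), and Pspc1 from 44.7 ± 2.04 to 60.2 ± 0.853 (0.43, edgeR adjusted p = 7.74e-09). Nono, which pairs with both, had 489 ± 14.3, 481 ± 20.4 and 488 ± 27.7 CPM in the control, Atf3 and Atf4 lines and did not pass the test. Nono was called lower in the Atf3 line under upper-quartile scaling (-0.14) and plain totals (-0.16). Those values lay near the median of all genes under the same scalings, -0.138 and -0.155. Taf15, an RNA-binding protein of the FET family, rose from 118 ± 5.04 CPM to 205 ± 14.8 in the Atf3 line and 163 ± 6.58 in Atf4 cells. Tardbp, the gene of TDP-43, rose from 278 ± 6.02 to 408 ± 10.2 and 358 ± 10.1 CPM. Cirbp, a cold-inducible RNA-binding protein, was the paraspeckle gene that fell in the Atf3 line, from 107 ± 4.23 to 82.9 ± 3.85 CPM.

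Malat1 (ENSMUSG00000092341, lincRNA, chr19:5795690-5802672, minus strand, 6983 exonic bases) was the most abundant member and fell less than Neat1, its neighbour on the chromosome. Its CPM was 507, 624, 758, 611 and 587 in the control libraries, 331, 384, 505, 419 and 499 in the Atf3 line, and 299, 366, 360, 534 and 708 in Atf4 cells. The Atf3 libraries all lay below the control libraries, by as little as 505 against 507, whereas the Atf4 libraries overlapped them. The log2 fold change was -0.53 (SE 0.18, edgeR adjusted p = 0.0143) in the Atf3 line. In the Atf4 line it was -0.45 (SE 0.18, edgeR adjusted p = 0.0416), a call that was lost with DESeq2 (0.0756), with only the 2 lines in the fit (0.0597) and without any of control replicates 2, 3 or 4 or Atf4 replicates 1, 2 or 3 (up to 0.0985). Without Atf4 replicate 5, the library with 708 CPM, it was -0.68. The Atf4 line differed from the Atf3 line by 0.08 (95% interval -0.30 to 0.47, edgeR adjusted p = 0.738), or by -0.13 without that library.

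Malat1 took up 0.0301 to 0.0790% of the counts of a library. Mitochondrially encoded genes took up 4.00 to 4.16% in the control line, 3.23 to 3.95% in the Atf3 line and 3.28 to 3.57% in the Atf4 line, and the part of RNA quality in the spread of Malat1 was not tested. The Malat1 promoter is shown because it carries the short core searched above. It is RefSeq, GRCm38.p6, minus strand, chr19:5802623-5802922, and capitals mark TGACG or its reverse complement.
Malat1 promoter: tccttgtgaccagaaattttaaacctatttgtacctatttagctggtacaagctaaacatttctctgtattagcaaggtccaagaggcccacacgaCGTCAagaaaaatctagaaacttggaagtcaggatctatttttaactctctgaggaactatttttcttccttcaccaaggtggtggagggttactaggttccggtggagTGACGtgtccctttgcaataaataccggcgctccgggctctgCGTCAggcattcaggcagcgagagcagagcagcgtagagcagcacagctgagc
There were 3 such matches, starting 154, 45 and 3 bases before the transcription start, and 0 of TGACGTCA, TGANTCA or TGATGNAA. GC content was 47.0%, with 10 CpG.

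Genes for nuclear speckle proteins mostly rose while Malat1 fell. Of 13 tested, 10 rose and 1 fell in the Atf3 line (median log2 fold change 0.37), and 8 rose and 2 fell in Atf4 cells (median 0.26), beside the same all-gene shares of 36.8% and 36.3%, and of 31.9% and 29.7%. With plain totals the counts were 9 and 3 in the Atf3 line, and 8 and 2 in Atf4 cells. That scaling also moved the share of all calls that were higher, from 50.3% to 38.4% and from 51.8% to 46.8%. Srsf2, a serine and arginine rich splicing factor, rose from 168 ± 6.44 CPM to 303 ± 16.4 in the Atf3 line (0.85, edgeR adjusted p = 1.30e-12) and 247 ± 8.29 in the Atf4 line (0.56, edgeR adjusted p = 8.58e-10). Srsf7, of the same family, rose from 105 ± 3.09 to 170 ± 8.61 and 145 ± 6.61 CPM. Son, a scaffold protein of speckles, fell from 655 ± 49.9 CPM to 523 ± 69.1 (-0.32, edgeR adjusted p = 0.00432) and 536 ± 78.4 (-0.29, edgeR adjusted p = 0.0116). Between the overexpressing lines, 10 of 13 speckle genes and 12 of 15 paraspeckle genes were lower in the Atf4 line, where 23.9% of all genes were. With plain totals 6 and 7 were lower, and over all genes 2369 of 18244 were, against 4363 with TMM scaling.

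Genes around Malat1 and Neat1 were called in both directions. These 2 genes share 60 annotated protein-coding neighbours within 500 kb. Around Neat1, 25 of 54 tested neighbours rose and 13 fell in the Atf3 line, and 17 rose and 14 fell in Atf4 cells. All-gene shares were 36.8% higher and 36.3% lower in the former and 31.9% and 29.7% in the latter, so the counts in Atf4 cells lay near the background. Frmd8, which lies 4224 bases from Neat1, rose from 113 ± 4.56 CPM to 131 ± 6.70 in the Atf3 line (0.21, edgeR adjusted p = 7.45e-05) and 127 ± 3.62 in the Atf4 line (0.16, edgeR adjusted p = 0.00150). With plain totals the Frmd8 difference in the Atf3 line was 0.07 and not called.

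Pantr1 (ENSMUSG00000060424, lincRNA, chr1:42590782-42694842, minus strand, 4458 exonic bases) differed little between lines. It starts 926 bases from Pou3f3, a POU-domain factor gene of neural development that is transcribed the other way. Its CPM was 49.6, 51.0, 51.3, 45.8 and 54.5 in the control libraries, 53.6, 62.1, 55.5, 57.4 and 61.7 in the Atf3 line, and 52.9, 52.2, 48.4, 47.3 and 47.2 in the Atf4 line. The Atf3 libraries were mostly higher than control but overlapped it, and lay above every Atf4 library. Pantr1 was called higher in the Atf3 line (by 0.20, SE 0.05, edgeR adjusted p = 0.00187), but not under upper-quartile scaling (0.08, adjusted p = 0.172) or plain totals (0.07, adjusted p = 0.262). Those scalings move the median of all genes in this comparison to -0.138 and -0.155, and relative to that median the rise of Pantr1 was about the same. The Atf4 line did not differ detectably from control (-0.02, 95% interval -0.13 to 0.09, edgeR adjusted p = 0.700). It was lower than the Atf3 line by 0.23 (SE 0.05, edgeR adjusted p = 0.00177), or by 0.13 (adjusted p = 0.0545) with plain totals.

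Pou3f3 and Pantr2, another long noncoding RNA beside it (chr1:42707061-42713454), were higher in the same line. Pou3f3 had 202 ± 11.1 CPM in control cells, 272 ± 18.6 in the Atf3 line and 193 ± 15.7 in Atf4 cells. It rose in the Atf3 line by 0.43 (SE 0.06, edgeR adjusted p = 1.39e-06) and did not pass the test in the Atf4 line (-0.07, adjusted p = 0.303), except without Atf4 replicate 5 (-0.13, adjusted p = 0.0313). Pantr2, named after its values were seen, had 3.85 ± 0.525, 5.57 ± 0.724 and 3.86 ± 0.355 CPM. Pantr2 rose in the Atf3 line by 0.53 (SE 0.10, edgeR adjusted p = 1.69e-04) and differed by 0.00 in the Atf4 line (adjusted p = 0.995). The Atf4 line lay below the Atf3 line by 0.50 for Pou3f3 and 0.53 for Pantr2, with no overlap of libraries.

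**Figure D3:**
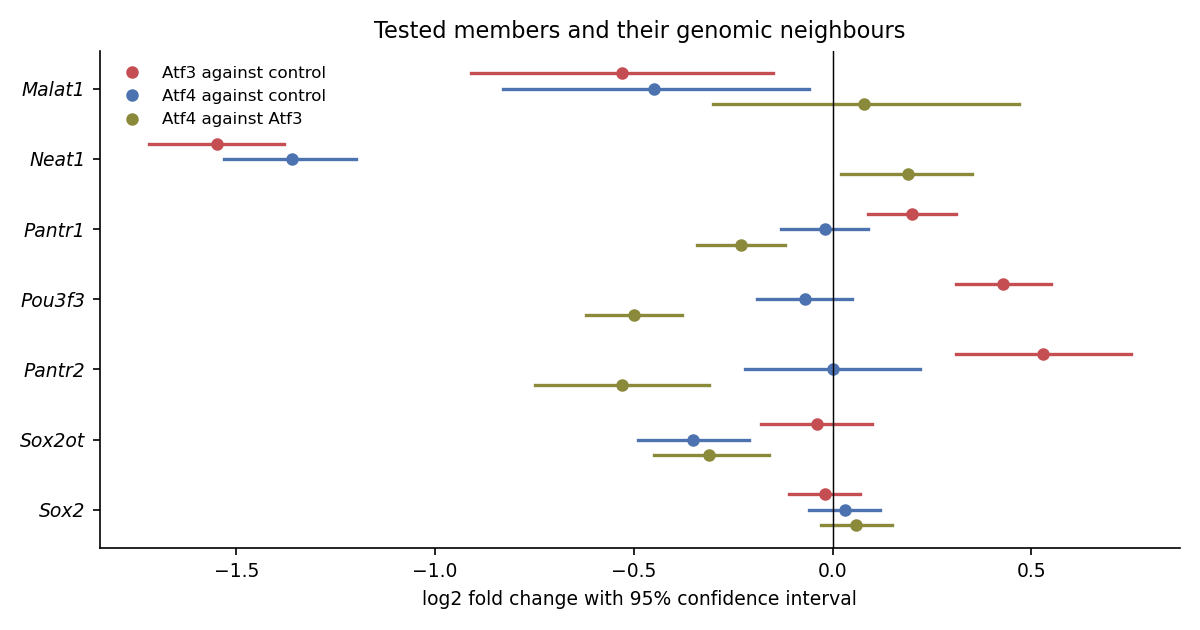
Log2 fold change (x axis, points) with 95% confidence intervals (lines) of the 4 tested members other than Miat and of Pou3f3, Pantr2 and Sox2, in 3 comparisons of lines. Pantr1, Pou3f3 and Pantr2 are higher in the Atf3 line against control and lower in the Atf4 line against the Atf3 line, and Sox2ot is lower in the Atf4 line while Sox2 stays near 0.

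Sox2ot (ENSMUSG00000105265, chr3:34104270-34682619, plus strand, 11594 exonic bases) is a long transcript unit that contains Sox2, the gene of a transcription factor that maintains neural stem cells, inside its span on the same strand. Its CPM was 11.0, 11.5, 9.61, 10.5 and 10.2 in the control libraries, 9.56, 10.0, 10.3, 10.2 and 11.1 in the Atf3 line, and 8.48, 9.34, 7.93, 7.28 and 8.33 in the Atf4 line. The Atf4 libraries all lay below those of both other lines. Sox2ot fell in the Atf4 line by 0.35 (SE 0.07, edgeR adjusted p = 1.86e-04) against control and was lower than in the Atf3 line by 0.31 (SE 0.07, edgeR adjusted p = 0.00131). In the Atf3 line it differed from control by -0.04 (95% interval -0.18 to 0.10, edgeR adjusted p = 0.575), and was called lower under upper-quartile scaling (-0.16) and plain totals (-0.18). Sox2, which shares 0 exonic bases with Sox2ot, had 228 ± 7.50, 224 ± 13.3 and 233 ± 11.4 CPM. Sox2 passed no test in the main fits, but in the Atf3 line was called lower under the same pair of scalings (-0.14 and -0.16). Under these scalings Sox2 was also called higher in the Atf4 line than in Atf3 cells (0.12 and 0.16). The median of all genes moved the same way, to -0.138 and -0.155 in the Atf3 line against control. Between the overexpressing lines it moved to 0.071 and 0.108. The Sox2ot and Sox2 values of the Atf3 line against control thus lay near the median of all genes.

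Rmst (ENSMUSG00000112117, lincRNA, chr10:92071037-92165170, minus strand, 7423 exonic bases) was barely detected and was not tested. It had 0, 0, 0, 0 and 2 counts in the control libraries, 1, 0, 0, 2 and 1 in the Atf3 line, and 0 in all 5 Atf4 libraries. A count of 0 allows up to 3 counts, or 0.0421 to 0.0558 CPM in these libraries, for counting error only. All Rmst values lay under that limit, so no difference between lines was detectable at this depth.

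Per kb of exon, the order of the members changed with the line. In the control line Malat1 stood at 88.4 ± 13.0 CPM per kb, Pantr1 at 11.3 ± 0.709, Miat at 5.37 ± 0.483, Neat1 at 4.15 ± 0.419 and Sox2ot at 0.911 ± 0.0634. Miat and Neat1 were neighbours in this order whose libraries did not overlap (4.83 to 5.78 against 3.48 to 4.52). Their order rests on GENCODE M21 exon lengths, 20771 bases for Neat1. Because the counts do not separate its short transcript from the long one, Neat1 could stand higher per kb of the RNA present. The annotation behind the counts was not given. In the Atf3 line Miat, at 0.0851 ± 0.0223, came after Pantr1, Neat1 (1.42 ± 0.0681) and Sox2ot (0.883 ± 0.0469). In the Atf4 line Miat, at 0.235 ± 0.0761, was again below Sox2ot, at 0.713 ± 0.0651. Rmst was last in all 3 lines.

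Of the 4 tested members other than Miat, 2 fell and 1 rose in the Atf3 line, and 3 fell and 0 rose in Atf4 cells. Beside the all-gene shares of 36.3% lower and 36.8% higher in the Atf3 line, and 29.7% and 31.9% in the Atf4 line, so few members cannot be set apart. Both comparisons use the same 5 control libraries. In the Atf4 line against the Atf3 line, 2 of the 4 were lower and 0 higher, beside 23.9% and 19.7% of all genes.

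Known factors linked to these RNAs moved in both directions. Sf1, which binds the Miat repeat, rose from 239 ± 9.24 CPM to 321 ± 10.9 in the Atf3 line (0.43, edgeR adjusted p = 4.29e-08) and 282 ± 19.2 in the Atf4 line (0.24, edgeR adjusted p = 9.49e-05). Celf3, another RNA-binding protein reported with Miat, fell from 1.91 ± 0.215 CPM to 1.51 ± 0.134 (edgeR adjusted p = 0.0309) and 1.40 ± 0.302 (edgeR adjusted p = 0.00821). Without a filter on low counts, without control replicate 2 or 3, or without Atf3 replicate 2, 3 or 5, the Celf3 call in the Atf3 line was lost (adjusted p up to 0.0754). Qki, an RNA-binding protein of neural and oligodendrocyte lineage cells, was 772 ± 12.4, 839 ± 34.2 and 708 ± 12.6 CPM. Qki was called higher in the Atf3 line (0.12) and lower in Atf4 cells (-0.13), but under upper-quartile scaling and plain totals its Atf3 difference was 0.00 or below and not called. Rest, the repressor of neuronal genes, fell from 86.5 ± 1.76 CPM to 71.6 ± 2.64 (-0.27, edgeR adjusted p = 8.12e-06) and 73.2 ± 4.75 (-0.24, edgeR adjusted p = 5.26e-05). Mettl16, an RNA methyltransferase that binds Malat1, rose from 33.1 ± 1.30 CPM to 46.3 ± 2.25 and 43.2 ± 3.22.

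Most other long noncoding RNAs that were called also fell. From a list of 39 further named RNAs, 30 were abundant enough to be tested. In the Atf3 line 16 fell, 6 rose and 8 passed no test, with a median log2 fold change of -0.27. In the Atf4 line 19 fell, 3 rose and 8 passed no test, with a median of -0.32. Without control replicates 4 and 5, whose Atf3 mRNA stood highest among controls, 16 and 15 fell. Long noncoding genes of all annotated types leaned the same way: of 2008 tested, 45.1% fell and 17.1% rose in the Atf3 line (median -0.33), and 36.2% fell and 12.1% rose in the Atf4 line (median -0.25). Of 13937 protein-coding genes, 35.9% fell and 42.6% rose in the Atf3 line and 30.6% and 37.0% in the Atf4 line.

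Kcnq1ot1, an imprinted antisense transcript, fell from 13.6 ± 2.64 CPM to 4.25 ± 0.642 in the Atf3 line (-1.67, edgeR adjusted p = 8.70e-09) and 4.81 ± 1.03 in the Atf4 line (-1.51, edgeR adjusted p = 6.08e-08). Mir9-3hg, host of a neural microRNA, fell from 20.2 ± 1.29 CPM to 6.85 ± 0.417 (-1.56, edgeR adjusted p = 1.67e-11) and 8.71 ± 1.46 (-1.21, edgeR adjusted p = 9.81e-10). Dleu2, a host gene of microRNAs, fell from 18.2 ± 1.40 CPM to 11.0 ± 0.899 and 11.7 ± 0.631. Meg3, an imprinted RNA abundant in neurons, was scarce, at 0.426 ± 0.0656, 0.200 ± 0.0269 and 0.113 ± 0.0732 CPM, and fell in both lines.

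Rises were fewer. Pvt1, the neighbour of Myc, rose from 7.11 ± 0.401 CPM to 28.9 ± 4.30 in the Atf3 line (2.02, edgeR adjusted p = 3.83e-12) and 17.2 ± 2.39 in the Atf4 line (1.27, edgeR adjusted p = 5.05e-09). Epb41l4aos rose from 8.23 ± 0.452 CPM to 11.6 ± 1.11 in the Atf3 line (0.49, edgeR adjusted p = 1.45e-06). Mir22hg took opposite directions, at 6.55 ± 0.812 CPM in control cells, 10.9 ± 1.12 in the Atf3 line (0.73, edgeR adjusted p = 2.84e-07) and 5.44 ± 0.256 in the Atf4 line (-0.27, edgeR adjusted p = 0.0121). The fall of Mir22hg was lost without control replicates 4 and 5 (-0.18, adjusted p = 0.122). Norad, which binds Pumilio proteins, was 311 ± 5.92, 349 ± 11.7 and 344 ± 7.25 CPM and was called higher in both lines, but not in the Atf3 line under upper-quartile scaling (0.04) or plain totals (0.03).

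**Figure D4:**
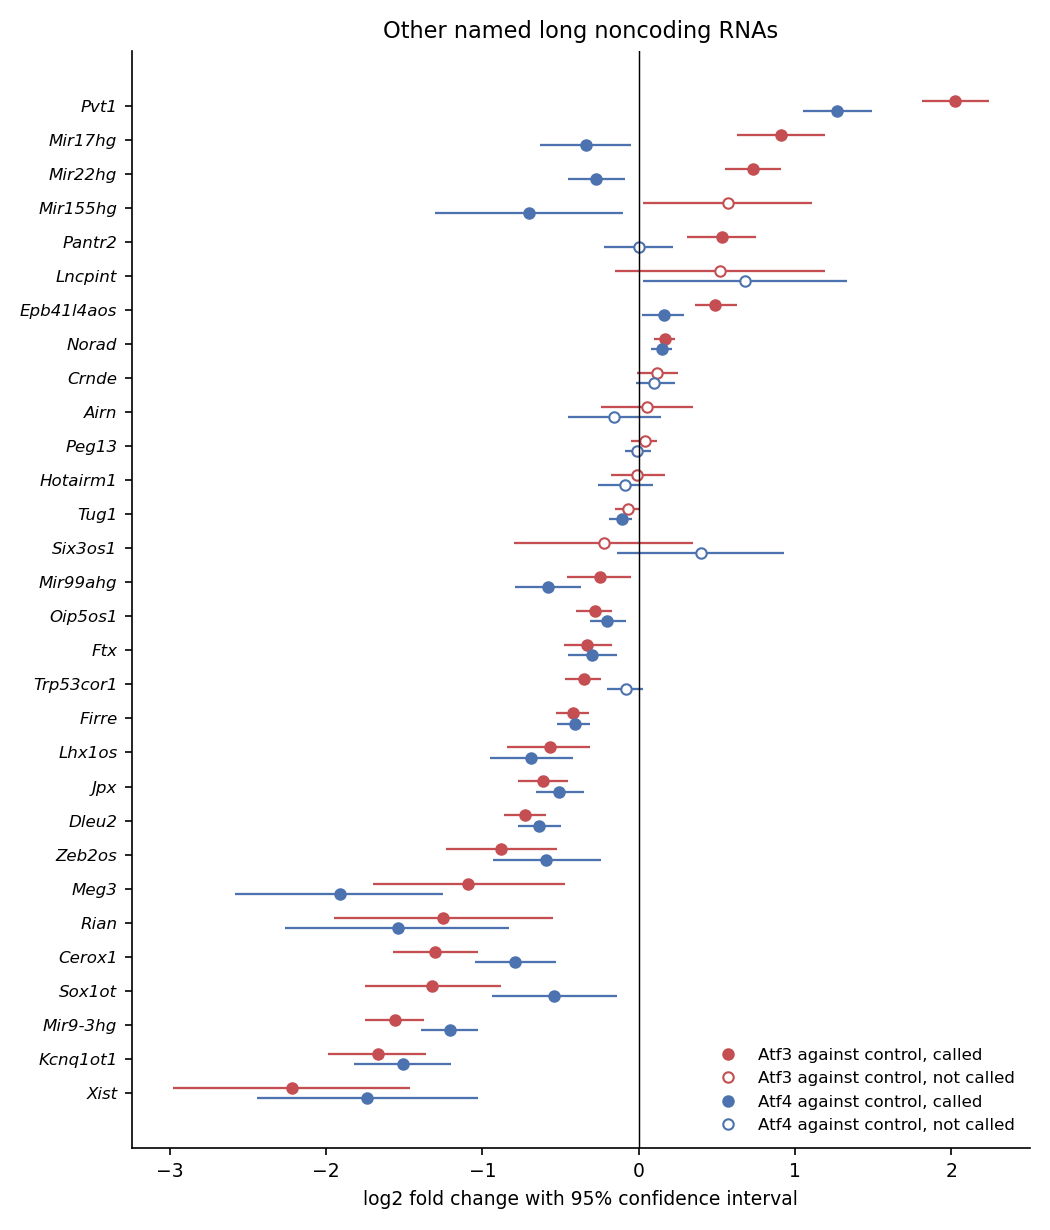
Log2 fold change against the control line (x axis) with 95% confidence intervals for 30 other named long noncoding RNAs (rows), in the Atf3 line and the Atf4 line; filled points passed the edgeR test and open points did not. Most filled points lie left of 0 in both lines, and Pvt1 lies farthest right, at 2.02 and 1.27.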

How the data were processed

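RNA sequencing libraries of 3 cell lines, 5 per line, were compared. The authors deposited a table of raw gene counts without normalization. The submitters' processing notes name STAR, edgeR and mm10; their versions, the strand setting and the annotation behind the counts were not given in the sources used here, and the labels do not say how ribosomal RNA was removed. Groups and replicate numbers came from the titles. Symbols and coordinates came from GENCODE M21 on GRCm38 (52083 of 55416 identifiers matched), with a few older symbols matched through RefSeq synonyms, and sequences from RefSeq (promoters of 2 of the 6 members) and GENCODE.

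The analysis used edgeR 4.0.16 in R 4.3.3: TMM scaling, filterByExpr, which left 18244 genes, 1 fit over 15 libraries with a coefficient per line, quasi-likelihood tests and Benjamini-Hochberg adjustment over all genes tested, called at an adjusted p under 0.05. CPM are counts divided by TMM-scaled totals. Fold changes, standard errors and 95% intervals come from the fit. The scripts were tested on simulated data. Lines count as not overlapping where the lowest library of the higher line exceeded the highest of the lower. Libraries of a line differed beyond sampling noise (chi-square per degree of freedom 5.47 to 53.4) and were counted separately. The labels give no batch or date.

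Members and gene lists (other long noncoding RNAs, paraspeckle proteins, nuclear speckle proteins, binding partners and regulators, and cell type markers) were chosen with earlier results of these data known. Of the other lists, neural precursor markers gave 3 higher and 3 lower of 8 in the Atf3 line and 4 and 2 in the Atf4 line, neuronal markers 3 and 4 of 9 and 4 and 3, astrocyte markers 1 and 3 of 5 and 1 and 4, and microglia markers 0 and 1 of 1 in both. A list of small structural RNAs matched 1 gene with at most 1 count and was not used. Genes named besides members were up to 3 rising and 3 falling per list with the smallest adjusted p against control, the nearest protein-coding neighbours, and 11 named whatever their result; a subset is printed, and Crybb1, Tpst2, Gm6588 and Pantr2 were added after their values were seen.

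Alternatives were DESeq2 1.42.0, limma-voom (limma 3.58.1), upper-quartile scaling, plain totals, no filter, a filter of 1 CPM, only 2 lines in the fit, the replicate number as a block, leaving out each library, a window of 100 kb for neighbours and, added after the data were seen, leaving out control replicates 4 and 5 together.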

Additional observations from a re-analysis of the deposited data

Results flagged for a closer look

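Among 119 groups of 5 libraries checked for a library far from the rest, 3 held one; chance flags about 1 in 20 groups. Rmst had 0.0297 CPM in control replicate 5, where the other control libraries had 0, a value from 2 counts. Norad had 328 CPM in Atf3 replicate 4, where the other Atf3 libraries had 350 to 357. Frmd8 had 122 CPM in control replicate 5, where the other controls had 111 to 113.

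The change against control differed between the overexpressing lines for 2 tested members and 19 of the 34 other named genes checked. This is edgeR's test of the Atf4 line against the Atf3 line, in which the controls cancel. Over all 18244 tested genes, 43.6% passed it. Many named genes were picked for a small adjusted p against control in these same libraries, so their number says little. The differences are Atf4 minus Atf3 on the log2 scale, with an edgeR adjusted p between 1.76e-07 (Mir22hg) and 0.00800 (Crybb1). Among members, Pantr1 differed by -0.23 and Sox2ot by -0.31. Among other long noncoding RNAs, Mir22hg differed by -1.0, Pvt1 by -0.75, Pantr2 by -0.53, Epb41l4aos by -0.34 and Mir9-3hg by 0.35. Beside the members, Pou3f3 differed by -0.50, Crybb1 by 0.60 and Tpst2 by 0.27.

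Named genes of the paraspeckle, speckle and binding partner lists also passed this test, while Nono and Son did not. Pspc1 differed by -0.34, Taf15 by -0.33, Sfpq by -0.23, Tardbp by -0.19 and Nudt21 by -0.17, while Cirbp was higher by 0.22. Srsf2 differed by -0.29, Srsf7 by -0.23, Qki by -0.25, Sf1 by -0.19 and Hnrnpa2b1 by -0.15. With plain totals, Pantr1 (-0.13), Sf1 (-0.09) and Hnrnpa2b1 (-0.04) did not pass the test.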

How the results depend on the processing

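Neat1 in both lines, Malat1 in the Atf3 line and Sox2ot in the Atf4 line fell. They kept direction and call under all alternatives run. Miat kept its direction too, but it was picked for its fall in these libraries, so this is no independent check. Scaling changed the calls of several genes: plain totals moved the median of all genes by -0.155 in Atf3 against control and 0.108 in Atf4 against Atf3, upper-quartile scaling by -0.138 and 0.071. The share of calls that were higher went from 50.3% to 38.4% and 40.0% in the former, and from 45.2% to 72.3% and 62.8% in the latter. In Atf3 against control under upper-quartile scaling and plain totals, Pantr1 was 0.08 and 0.07, Sox2ot -0.16 and -0.18, members called higher 0 and 0, and Qki turned to -0.00 and -0.02. In Atf4 against Atf3, Neat1 was 0.25 and 0.29, with 1 member higher under each. Plain totals there gave 6196 genes higher and 2369 lower, against 3595 and 4363, other long noncoding RNAs higher 9 against 4, members lower 1 against 2, Pantr1 -0.13 and Norad 0.08. With a filter of 1 CPM, Neat1 was 0.21 and 1 member higher. Within 100 kb, 3 neighbours of Miat were lower in each line.

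Malat1 in Atf4 against control was -0.45 with DESeq2 and with only the 2 lines, and -0.49 without control replicates 4 and 5 (chosen after seeing the data), none called. Leaving out each library gave Malat1 -0.68 to -0.34 in that comparison and -0.13 to 0.20 in Atf4 against Atf3, where Neat1 ranged from 0.11 to 0.24 and members higher from 0 to 1. The causes were not tested.

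With the replicate number as a block, Malat1 was -0.55 and Neat1 -1.55 in Atf3 against control, 6630 genes were higher and 6502 lower, and no member changed its call. The numbers do not pair the libraries: same-numbered libraries correlated by -0.11 to 0.12 after removing line means, 1 of 15 pairs exceeded 0.1, and 3 of 30 comparisons put a library closest to its own number. Among single named genes, 46 calls were lost, 16 gained and 3 values changed sign (Qki and Norad, above) over all alternatives. Depth limits Rmst, Gm26953 and the scarce Meg3, Xist and Cryba4.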
